A study of Homo sapiens with 6 samples.

Results

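Kinesins are motor proteins that walk along microtubules or take their ends apart. Some members build and drive the mitotic spindle and the midzone where the cell divides. Their genes are known to be switched on mainly in the G2 and M phases of the cell cycle. Other members carry vesicles, organelles and ciliary components in cells at any stage. The 39 kinesin genes described here were taken by name, among 22439 genes that had a probe named through RefSeq, and each is represented by its brightest probe, judged by the mean log2 signal over the arrays. They were sorted by textbook role into 13 mitotic kinesins, 12 cargo transport kinesins, 7 ciliary kinesins, 5 other non-mitotic kinesins, and KIF2A and KIF24, kinesin-13 members with several roles that were kept apart.

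RNA came from AGS cells, an established line of human gastric adenocarcinoma, 48 h after transfection with a nontargeting siRNA (si-Control, spelled si-control in the labels) or with the siRNA si-C1GALT1-3, which is directed at C1GALT1, the enzyme that extends O-linked sugar chains from N-acetylgalactosamine to the core 1 structure. There were 3 samples per group, with 1 one-colour Agilent array for each. The comparison asks which transcripts differed between the groups. All samples came from 1 cell line, and 1 targeting siRNA was profiled, so the loss of its target and any other action of that sequence cannot be told apart.

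The share of gene spots well above background ran from 66.2% to 72.7% over the arrays, and no gene spot was saturated. On the array of si-Control replicate 2, a central rectangle of 9712 gene spots (15.9%) gave low signals, with 36.5% of spots well above background inside it and 71.9% elsewhere, and these spots were set to missing. The mask took the si-Control replicate 2 value from 13 of the 39 kinesins, and KIF5B lost it because the scanner software marked that spot as an outlier, so these genes have n = 2 for si-Control. Same-numbered replicates shared a slide, and si-Control always lay in its column 1 and si-C1GALT1-3 in its column 2, so position on the slide and treatment cannot be told apart. The labels do not say whether the samples of a group were separate cultures, so the p-values measure only the spread between these samples, which may be technical. Precision is limited by the small number of arrays. Every array showed signal well above background for the epithelial genes EPCAM, KRT8, KRT18 and KRT19. Of 7 markers of leukocytes, fibroblasts and endothelium, 4 were also above background wherever they had a value, and none passed the call by its brightest probe. The 5 probes of the leukocyte gene PTPRC did not behave alike. Probe A_33_P3364821 gave 6.81, 6.68 and 6.09 log2 signal in si-Control and 9.12, 8.37 and 7.78 in si-C1GALT1-3, a log2 fold change of 1.90 (SE 0.39). Probe A_33_P3364811 was not above background in si-Control, at 3.11, 3.20 and 3.15, and gave 6.39, 5.27 and 5.03 in si-C1GALT1-3, above background on 2 of those arrays. Both probes were called higher, the brightest probe had a log2 fold change of -0.33 (SE 0.21), and PTPRC is also among the genes that the study selected on these arrays. The part of this in the kinesin values was not tested.

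In every value below, signal is the quantile-normalized log2 intensity of 1 probe, and a log2 fold change is si-C1GALT1-3 minus si-Control. Levels of different probes were not set against each other. A gene was called changed at a limma p under 0.01 and at least 2-fold, and p-values were adjusted by the Benjamini-Hochberg method across the 58195 probes that could be tested. By this rule 1538 probes were called (2.64%), of which 961 were higher (1.65% of probes) and 577 lower (0.991%). Counted by gene, 3.41% were called in either direction. No kinesin had an adjusted p under 0.05 by limma or by an unmoderated test of each probe, although 12 of the 39 had an unadjusted limma p under 0.05, 11 lower (7.14% of genes) and 1 higher (9.49% of genes). Because the arrays measured whole cultures, fewer cells of a type, such as cells in mitosis, and less RNA per cell cannot be told apart. The study reports flow cytometry of DNA content in AGS cells with this siRNA, and an arrest in G1. Those measurements were not used here.

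C1GALT1 itself gave 12.22, 13.03 and 12.62 log2 signal on the si-Control arrays and 11.76, 11.98 and 11.13 on the si-C1GALT1-3 arrays. The groups did not overlap. The log2 fold change was -1.0 (SE 0.31), with a limma p of 0.0193 and an adjusted p of 0.265, so the targeted transcript was lower on every si-C1GALT1-3 array but did not pass the call.

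Short sequences known from cell-cycle genes stand in many promoters of the mitotic kinesins and in few of the others, and some promoters are shown so that the expression values can be read beside them. The cell cycle genes homology region (CHR), with the core TTTGAA or TTTAAA, is bound by the DREAM and MYB-MuvB complexes, which hold late cell-cycle genes off in resting cells and on in G2 and M. It often stands near a CCAAT box, the letters bound by NF-Y. The windows below are the 100 bases before the annotated start of each gene, from RefSeq on GRCh38.p14, and that of KIF2C runs 3 bases past the start to hold the whole core. Capitals mark the CHR core and the CCAAT box on either strand (TTCAAA is TTTGAA, and ATTGG is CCAAT, read on the opposite strand). KIF4A (chrX:70290004-70290103, plus strand), KIF2C (chr1:44739737-44739839, plus strand) and CENPE (chr4:103198344-103198443, minus strand) are shown because they were the mitotic kinesins called lower. KIF20A (chr5:138179012-138179111, plus strand), KIF23 (chr15:69414249-69414348, plus strand) and KIF11 (chr10:92593030-92593129, plus strand) are midzone and spindle motors that lay lower without passing the call. KIF18A (chr11:28108157-28108256, minus strand) holds both motifs but did not differ, and KIF3A (chr5:132737547-132737646, minus strand) is the ciliary kinesin called higher, with neither motif.
KIF4A: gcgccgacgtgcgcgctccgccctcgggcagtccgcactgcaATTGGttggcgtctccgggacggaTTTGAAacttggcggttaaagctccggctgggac
KIF2C: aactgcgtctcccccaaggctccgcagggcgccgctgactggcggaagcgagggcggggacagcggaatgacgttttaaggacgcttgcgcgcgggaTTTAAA
CENPE: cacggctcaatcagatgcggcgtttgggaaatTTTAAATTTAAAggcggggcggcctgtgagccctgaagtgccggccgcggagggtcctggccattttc
KIF20A: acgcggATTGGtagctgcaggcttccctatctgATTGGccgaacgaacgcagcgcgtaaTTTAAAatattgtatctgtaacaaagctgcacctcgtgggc
KIF23: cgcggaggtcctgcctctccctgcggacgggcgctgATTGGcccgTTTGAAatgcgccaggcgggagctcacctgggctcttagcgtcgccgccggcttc
KIF11: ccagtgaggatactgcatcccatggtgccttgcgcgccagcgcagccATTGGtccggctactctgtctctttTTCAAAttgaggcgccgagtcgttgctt
KIF18A: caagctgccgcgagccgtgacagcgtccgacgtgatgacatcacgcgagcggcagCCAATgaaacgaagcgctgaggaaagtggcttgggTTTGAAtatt
KIF3A: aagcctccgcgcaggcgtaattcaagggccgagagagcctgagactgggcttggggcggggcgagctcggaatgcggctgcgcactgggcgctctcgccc

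Over the whole window, from 250 bases before the start to 50 after it, a promoter was available for 32 of the 39 kinesins. A CHR core on either strand was found in 12 of 13 mitotic kinesins (92.3%), in 2 of 17 transport, ciliary and other kinesins (11.8%), and in 27.9% of the 27305 genes in the table. KIF22 was the mitotic kinesin without one. Within the last 100 bases or after the start, the same 12 mitotic kinesins held a core, no non-mitotic kinesin did, and 13.6% of all genes did. A CCAAT box was found in 10 mitotic kinesins (76.9%), 6 non-mitotic kinesins (35.3%) and 39.7% of all genes. Both motifs together were found in 9 mitotic kinesins (69.2%), in 1 non-mitotic kinesin (5.88%), KIF5B, and in 11.2% of all genes. The letters TTTAAA and TTTGAA are poor in G and C, and the median GC content of the windows was 62.5% for the mitotic class, 68.0% for the non-mitotic class and 58.7% for all genes. A match describes the letters and not a bound site. Gene by gene the letters and the expression values did not always go together. KIF18A held both motifs at a log2 fold change of 0.05, and KIF22 held no CHR core at -0.72. KIF18B and KIF20B held both motifs at -0.32 and -0.40, and KIF5B at 0.42, all with overlapping groups. The called genes KIF2C and CENPE, and KIF15, held a CHR core but no CCAAT box.

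**Figure D1:**
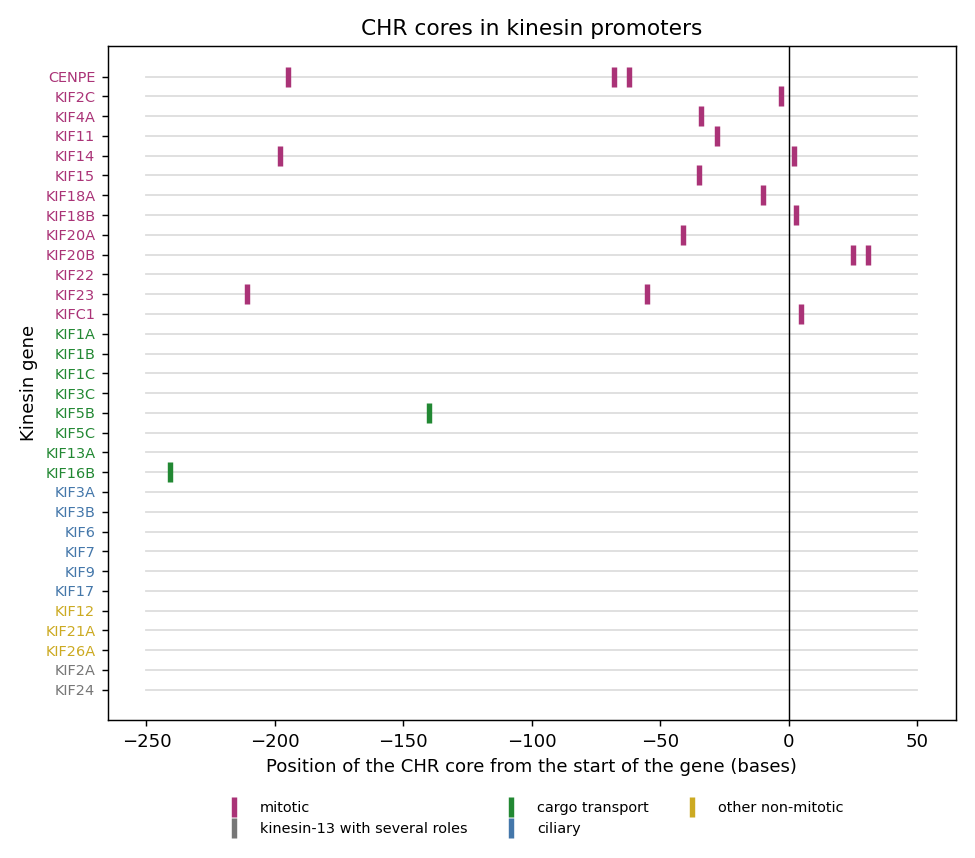
Position of each CHR core (TTTGAA or TTTAAA on either strand, vertical ticks) relative to the annotated start of the gene at 0, in bases, for the 32 kinesins with a promoter window of 250 bases before and 50 after the start (grey lines). For 12 of the 13 mitotic kinesins at least 1 tick lies within the last 100 bases or after the start. The mitotic CENPE, KIF14 and KIF23 also have a tick farther upstream, where the cores of KIF5B and KIF16B lie.

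Transcripts of most spindle and midzone motors were lower after si-C1GALT1-3. CENPE, KIF2C and KIF4A passed the call, 3 of 13 mitotic kinesins (23.1%), against 1.33% of 22437 genes called lower. At an unadjusted limma p under 0.05, 10 of 13 were lower (76.9%, against 7.14% of genes). The log2 fold changes ran from -1.55 for KIF14 to 0.05 for KIF18A, with 12 of 13 below 0 and a median of -1.09, where the median over all genes was 0.02 and 47.6% of genes lay below 0. All 13 were well above background on every array with a value. CENPE, KIF2C, KIF4A, KIF14, KIF20A and KIFC1 stand in a table of genes that the study selected on these arrays, so their direction is not independent evidence. The other 7 mitotic kinesins had a median of -0.72 and 0 called by limma. Of these 7, 4 were lower at an unadjusted limma p under 0.05 (57.1%, against 7.14% of genes). The class itself was drawn up with earlier results of these arrays known. The study also reports quantitative RT-PCR of selected genes, with primers listed for KIF2C and KIF20A, and those measurements were not used here.

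**Figure D2:**
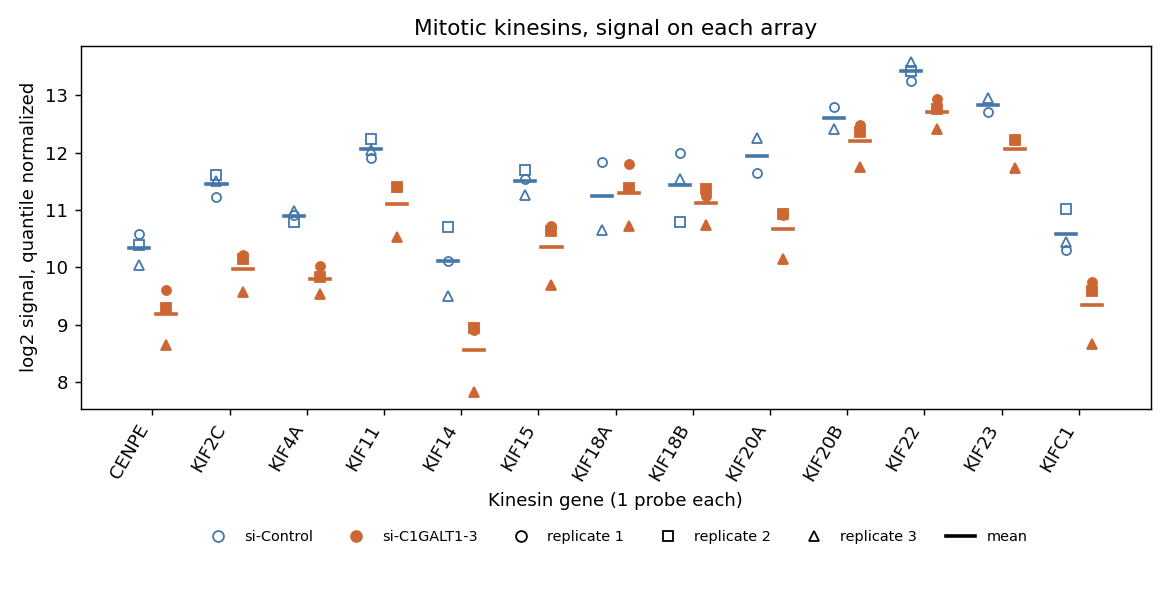
Quantile-normalized log2 signal of the 13 mitotic kinesins on each array, with open blue symbols for si-Control, filled orange symbols for si-C1GALT1-3, 1 symbol shape per replicate and a bar at the group mean. The groups do not overlap for 10 of the 13, and the triangle of si-C1GALT1-3 replicate 3 is the lowest of its group for every gene shown.

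KIF2C (probe A_23_P34788), a depolymerase that corrects faulty attachments of microtubules at the centromere, gave 11.23, 11.62 and 11.50 log2 signal on the si-Control arrays and 10.22, 10.14 and 9.57 on the si-C1GALT1-3 arrays. All si-C1GALT1-3 values lay below all si-Control values. The log2 fold change was -1.47 (SE 0.23), with an adjusted p of 0.102 in limma. KIF2C was called lower under every processing alternative that was run and without any single array.

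KIF4A (probe A_23_P148475), a chromokinesin that shapes chromosomes and limits the length of midzone microtubules together with PRC1, gave 10.90, 10.79 and 10.98 log2 signal in si-Control and 10.03, 9.83 and 9.54 in si-C1GALT1-3. The si-Control arrays lay close together, with an SD of 0.10 (n = 3), and well above the others. The log2 fold change was -1.09 (SE 0.17), with an adjusted p of 0.104 in limma. CENPE (probe A_23_P253524), the kinetochore motor that brings chromosomes to the spindle equator, gave 10.58, 10.39 and 10.04 in si-Control and 9.61, 9.29 and 8.66 in si-C1GALT1-3. Its groups did not overlap either, and the log2 fold change was -1.15 (SE 0.29), with an adjusted p of 0.203 in limma. The CENPE call was lost when any array other than si-C1GALT1-3 replicate 1 was left out, while its log2 fold change stayed between -1.29 and -0.88 with unadjusted limma p-values from 0.0119 to 0.0304. The KIF4A call was lost without si-C1GALT1-3 replicate 3, where the log2 fold change of -0.96 fell short of 2-fold at an unadjusted limma p of 0.00226.

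Motors that set up and hold the bipolar spindle lay lower without passing the call. KIF11, the plus-end motor that pushes the poles apart, gave 11.90, 12.24 and 12.04 log2 signal in si-Control and 11.39, 11.40 and 10.53 in si-C1GALT1-3, a log2 fold change of -0.96 (SE 0.28). KIF15, which keeps the spindle bipolar alongside KIF11, gave 11.53, 11.70 and 11.27 against 10.72, 10.64 and 9.69, a log2 fold change of -1.15 (SE 0.32). Neither gene had overlapping groups. KIFC1, a minus-end motor that crosslinks microtubules and focuses the poles, gave 10.31, 11.02 and 10.43 in si-Control and 9.75, 9.60 and 8.68 in si-C1GALT1-3, a log2 fold change of -1.25 (SE 0.35). KIF22, a chromokinesin that pushes chromosome arms away from the poles, had a smaller log2 fold change of -0.72 (SE 0.19) and missed the 2-fold limit rather than the p limit, with a limma p of 0.00905.

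Motors of the midzone and of cytokinesis, the final splitting of the cell, also lay lower. KIF14, which helps to recruit citron kinase to the midbody, gave 10.11, 10.71 and 9.50 log2 signal in si-Control and 8.91, 8.94 and 7.83 in si-C1GALT1-3. This was the lowest log2 fold change among the 39 kinesins, -1.55, but its SE of 0.44 was larger than that of KIF2C, and the limma p was 0.0134. KIF20A, which carries Aurora B to the midzone, gave 11.64 and 12.26 in si-Control and 10.91, 10.93 and 10.14 in si-C1GALT1-3, a log2 fold change of -1.29 (SE 0.35). KIF23, the motor subunit of centralspindlin, gave 12.71 and 12.96 in si-Control and 12.23, 12.23 and 11.73 in si-C1GALT1-3, a log2 fold change of -0.77 (SE 0.23). Both lost the si-Control replicate 2 spot to the mask, and their groups did not overlap on the 5 arrays left. Without the mask, the low spots on that array turned both values positive, to 0.81 (SE 1.82) for KIF20A and 1.99 (SE 2.35) for KIF23. A different probe of KIF23 lay outside the masked rectangle and had 3 values in each group, and its log2 fold change was -0.85 (SE 0.22), with a limma p of 0.00921.

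The mitotic class was not uniform. KIF18A, which dampens chromosome movements at the metaphase plate, gave 11.84 and 10.65 log2 signal in si-Control and 11.81, 11.38 and 10.72 in si-C1GALT1-3. The arrays of the same slide were close to each other, and the log2 fold change was 0.05 (SE 0.50). With the replicate block, which takes up the difference between slides, it was 0.017 (SE 0.16). Without the mask it was 2.70 (SE 2.28). KIF18B, which works with KIF2C on astral microtubules, had a log2 fold change of -0.32 (SE 0.35), and KIF20B, a motor needed for late cytokinesis, of -0.40 (SE 0.30), both with overlapping groups. KIF20B too was masked on si-Control replicate 2, and it reached 1.68 (SE 1.79) without the mask. A further probe of KIF20B, outside the rectangle, had a log2 fold change of -0.73 (SE 0.30) with groups that did not overlap.

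Of the 13 mitotic kinesins, 10 had groups that did not overlap, all lower. They were 8 of the 9 with values on 6 arrays, against 10.2% of genes, and 2 of the 4 with values on 5 arrays, against 16.6% of genes. The si-C1GALT1-3 replicate 3 array held the lowest of the si-C1GALT1-3 values for 13 of 13 mitotic kinesins, against 39.2% of all genes. That array had 67.5% of its gene spots well above background, against 72.5% and 72.7% on si-C1GALT1-3 replicates 1 and 2, and the part of this in the values was not tested. Without that array the median log2 fold change of the class was -0.81, and 1 mitotic kinesin, KIF2C, was called. Within slides, si-C1GALT1-3 minus si-Control was below 0 for 13 of 13 mitotic kinesins on slide 1, for 8 of 9 on slide 2 and for 12 of 13 on slide 3, with median differences of -0.73, -1.06 and -1.44. With the replicate as a block in limma, 5 mitotic kinesins were called, CENPE, KIF2C, KIF4A, KIF14 and KIF15. Over all probes that fit called 1604, against 1538 without the block.

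**Figure D3:**
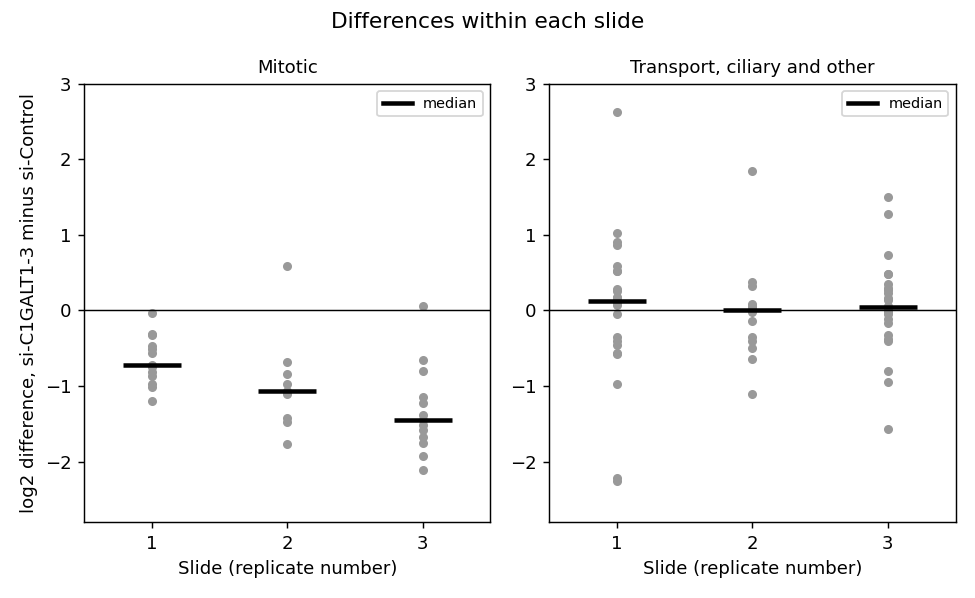
Difference in log2 signal between the si-C1GALT1-3 and the si-Control array of the same slide, 1 grey point per kinesin, with a black bar at the median. The mitotic medians are -0.73, -1.06 and -1.44 on slides 1, 2 and 3, while the 24 transport, ciliary and other kinesins have medians between 0.00062 and 0.13.

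The kinesins outside mitosis showed no shared direction. Of 24 transport, ciliary and other kinesins, 14 log2 fold changes lay above 0 and 10 below, where 52.4% of genes lay above 0, and the median was 0.04. KIF3A was called higher (4.17% of the class, against 2.08% of genes called higher), and 0 were called lower by limma, where 1, KIF3C, had an unadjusted p under 0.05 in that direction and an unmoderated test of each probe called none. Groups did not overlap for 3 genes that were higher. These were 2 of 15 with values on 6 arrays (13.1% of genes) and 1 of 9 with 5 (18.9% of genes). In the lower direction, they were 0 of 15 with 6 arrays (10.2% of genes) and 1 of 9 with 5 (16.6% of genes). These counts were near or below the shares over all genes. No test of the difference between the mitotic and the other kinesins was made, because the classes were drawn up with results of these arrays known.

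**Figure D4:**
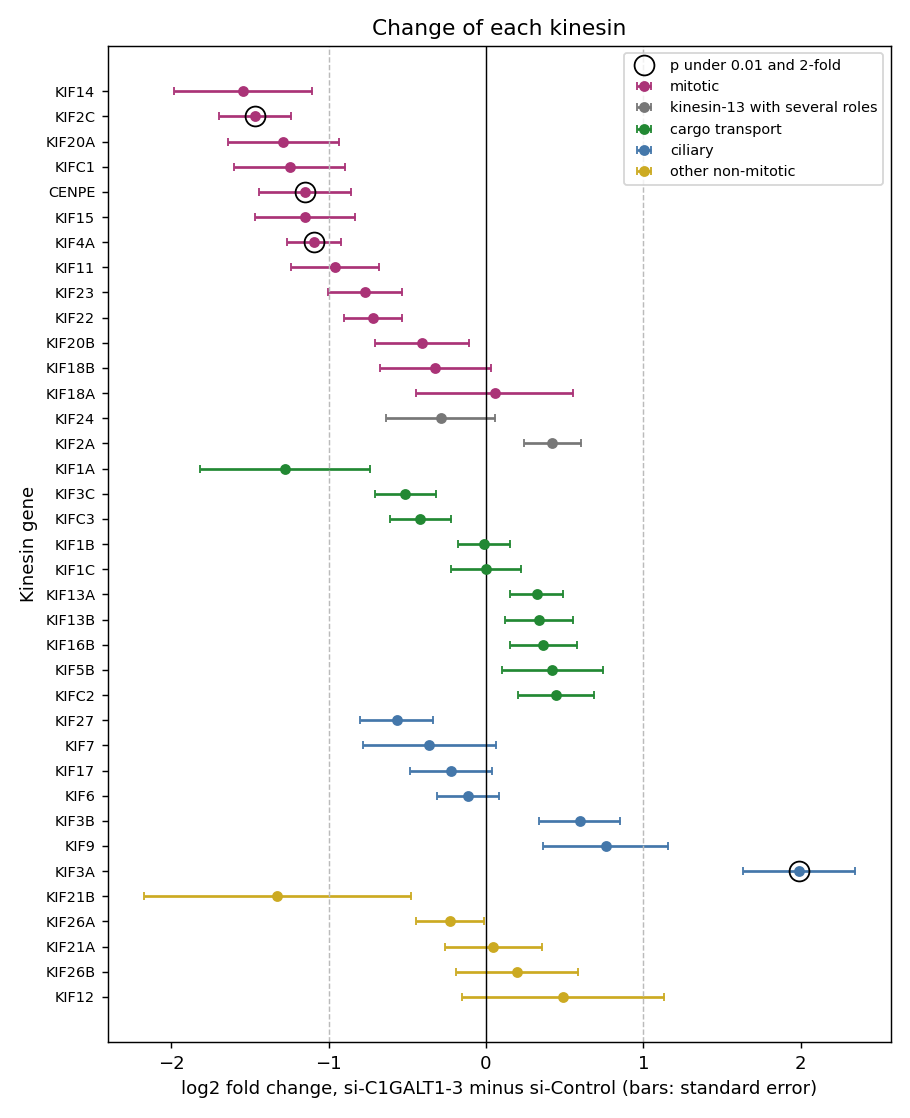
Fitted log2 fold change (points) with its standard error (bars) for the 37 kinesins that were above background on at least 1 array, ordered within classes, with rings around the 4 genes that passed p under 0.01 and 2-fold and dashed lines at 2-fold. CENPE, KIF2C and KIF4A are ringed on the left and KIF3A on the right at 1.99, while most transport and ciliary kinesins lie between the dashed lines.

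KIF3A (probe A_33_P3465247) is a motor subunit of heterotrimeric kinesin-2, which moves cargo out along the cilium. It gave 7.57, 8.65 and 8.81 log2 signal on the si-Control arrays and 10.19, 10.50 and 10.31 on the si-C1GALT1-3 arrays. The si-C1GALT1-3 arrays lay together, with an SD of 0.16 (n = 3), and all of them lay above si-Control. The log2 fold change was 1.99 (SE 0.35), with an adjusted p of 0.126 in limma, and it passed the call under every alternative that was run. A further probe of KIF3A had a log2 fold change of 0.75 (SE 0.29), and its groups overlapped, so the probes gave the same direction and different sizes. KIF3A is also in the study's table of selected genes.

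The other subunits of that motor did not pass the call. KIF3B, the partner motor subunit, gave 10.94 and 11.64 in si-Control and 11.80, 11.85 and 11.99 log2 signal in si-C1GALT1-3, a log2 fold change of 0.59 (SE 0.26) with groups that did not overlap. KIFAP3, the non-motor subunit that links it to cargo, had a log2 fold change of 0.17 (SE 0.29). KIF3C, which can take the place of KIF3B beside KIF3A, lay the other way at -0.51 (SE 0.20), with a limma p of 0.0498.

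Among the rest of the ciliary kinesins, KIF9, found in motile cilia, had a log2 fold change of 0.76 (SE 0.40), and KIF27 had -0.57 (SE 0.23). KIF7, which acts at the ciliary tip in Hedgehog signalling, had -0.36 (SE 0.42), KIF17, a homodimeric kinesin-2, -0.22 (SE 0.26), and KIF6 -0.12 (SE 0.20). All 5 had overlapping groups. For KIF7 the si-C1GALT1-3 arrays gave 5.53, 5.97 and 6.78 and the si-Control arrays 5.99, 7.08 and 6.29 log2 signal, so the spread within each group was wider than the difference between them.

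**Figure D5:**
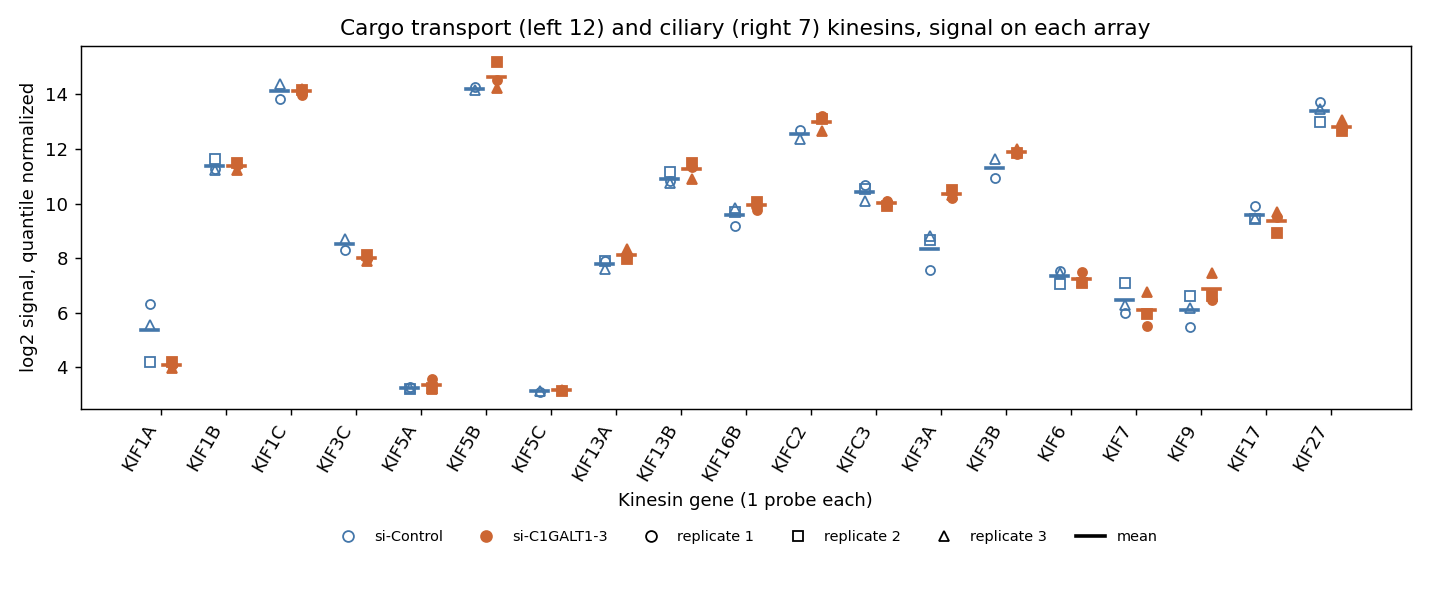
Quantile-normalized log2 signal of the 12 cargo transport kinesins (left) and the 7 ciliary kinesins (right) on each array, with the symbols as in the plot of the mitotic kinesins. KIF3A is the gene in which the si-C1GALT1-3 arrays stand well above all si-Control arrays, and KIF5A and KIF5C lie at the foot of the scale on every array.

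Among the cargo transport kinesins, the ubiquitous conventional heavy chain KIF5B gave 14.25 and 14.17 in si-Control and 14.51, 15.17 and 14.22 log2 signal in si-C1GALT1-3, and the log2 fold change of 0.42 (SE 0.32) came with overlapping groups. KIF5A and KIF5C, the neuronal heavy chains, were not well above background on any array, so no fold is given. KIF1A, a carrier of synaptic vesicle precursors in neurons, was well above background on 1 si-Control array and no si-C1GALT1-3 array. It gave 6.33, 4.19 and 5.57 in si-Control and 4.07, 4.19 and 3.99 in si-C1GALT1-3, with overlapping groups, a log2 fold change of -1.28 (SE 0.54) and an adjusted p of 0.380 in limma. Since 1 value in all was measured above background, no firm fold can be given. The log2 fold change was -0.80 without si-Control replicate 1, and it passed the call without si-Control replicate 2, at -1.88, and without the mask, at -1.60 (SE 0.36).

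The remaining cargo carriers lay within about 0.5 log2 of 0. KIF1B, which carries mitochondria and vesicles, had a log2 fold change of -0.01 (SE 0.16), and KIF1C, which carries vesicles in non-neuronal cells, of 0.0015 (SE 0.22). The endosomal motors KIF13A and KIF16B had 0.32 (SE 0.17) and 0.37 (SE 0.21), and KIF13B 0.34 (SE 0.22). KIF13A was the gene of this group whose arrays did not overlap, at 7.89, 7.90 and 7.59 in si-Control and 8.06, 7.96 and 8.33 log2 signal in si-C1GALT1-3. The minus-end motors lay on opposite sides, KIFC2 at 0.45 (SE 0.24) and KIFC3 at -0.42 (SE 0.19), both with overlapping groups.

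Of the other non-mitotic kinesins, KIF21B, which slows microtubule growth, gave 12.23 and 9.81 in si-Control and 10.02, 10.21 and 8.87 log2 signal in si-C1GALT1-3. The si-Control arrays differed more from each other than the groups did, and the log2 fold change of -1.33 had an SE of 0.85. It was -0.12 without si-Control replicate 1 and -2.51 without si-Control replicate 3, so its size rests on single arrays. A further probe of KIF21B, with values on 6 arrays, had a log2 fold change of -0.99 (SE 0.36) and groups that did not overlap. KIF21A, its close relative, had 0.05 (SE 0.31), KIF12 0.49 (SE 0.64), KIF26B 0.20 (SE 0.39) and KIF26A -0.23 (SE 0.22). In the fit without a block none of the 5 chosen probes passed an unadjusted p of 0.05 in limma, and all had overlapping groups. With the replicate block KIF21B was at -1.58 (SE 0.43), with an unadjusted limma p of 0.0454.

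The kinesin-13 members kept apart had log2 fold changes on either side of 0, unlike their relative KIF2C. KIF2A, a depolymerase that acts at spindle poles and in neurons, gave 12.03, 12.50 and 12.31 log2 signal in si-Control and 12.53, 12.87 and 12.71 in si-C1GALT1-3. Every si-C1GALT1-3 array lay above every si-Control array, narrowly, and the log2 fold change was 0.42 (SE 0.18), with a limma p of 0.0615. KIF24, a centriolar depolymerase that holds back cilium formation, had a log2 fold change of -0.29 (SE 0.35), and without the mask 1.18 (SE 1.28).

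The array carried more than 1 probe for 14 of the 39 kinesins. Of the 17 probes not chosen, 16 had the sign of the chosen probe, the exception being a KIF6 probe that was not above background on any array. All 5 further probes of mitotic kinesins, for KIF4A, KIF18B, KIF20B, KIF22 and KIF23, had log2 fold changes below 0. They ranged from -0.23 (SE 0.28) for KIF18B to -0.85 (SE 0.24) for KIF4A, and none passed the 2-fold limit.

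Transcripts of the proteins that mitotic kinesins work with lay on the same side. Of 15 spindle and midzone partners with a probe, all had a log2 fold change below 0, and the median was -1.14. Of the 15, 7 were called lower (46.7%, against 1.33% of genes). Groups did not overlap for 14, all lower. These were 11 of the 12 with values on 6 arrays, against 10.2% of genes. On 5 arrays they were 3 of 3, against 16.6% of genes. The partner list was drawn up with earlier results of these arrays known, so these shares are not independent evidence. The partners hold CHR cores in 11 of 13 available promoters (84.6%, against 27.9% of all genes). The called genes include those that bind the motors above. PRC1, the microtubule bundler that KIF4A and KIF14 bind at the midzone, gave 10.63, 11.25 and 10.64 log2 signal in si-Control and 8.84, 9.26 and 7.79 in si-C1GALT1-3, a log2 fold change of -2.21 (SE 0.42). RACGAP1, the centralspindlin partner of KIF23, gave 10.40, 10.59 and 10.44 against 9.46, 9.20 and 8.94, a log2 fold change of -1.28 (SE 0.18). Neither gene had any overlap between groups. AURKB, the kinase carried by KIF20A, had a log2 fold change of -1.19 (SE 0.30), TPX2, which targets KIF15 and AURKA to the spindle, -1.07 (SE 0.21), and HMMR, a spindle assembly factor, -1.21 (SE 0.25). CEP55, which acts at the midbody, had -1.17 (SE 0.28), and MAD2L1, of the spindle checkpoint, -1.14 (SE 0.21). With the replicate block 5 partners were called, PRC1, RACGAP1, HMMR, MAD2L1 and CIT, so TPX2, AURKB and CEP55 lost the call and CIT, the citron kinase named here after its values were seen, gained it. AURKB, MAD2L1 and CIT are in the study's table of genes selected on these arrays. Without si-C1GALT1-3 replicate 3 or without si-Control replicate 2, 3 of the 15 were called, PRC1, RACGAP1 and MAD2L1.

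Transcripts of the light chains and adaptors that load cargo onto transport kinesins had no shared direction either. Of 12 with a probe, 8 log2 fold changes lay above 0 and 4 below, and the median was 0.15. By limma 1 was called higher (8.33%, against 2.08% of genes) and 0 were called lower. At an unadjusted limma p under 0.05, 2 were higher (9.49% of genes) and 1 was lower (7.14% of genes). The called gene was FYCO1, also in the study's table of selected genes, which links late endosomes and autophagosomes to KIF5B, at 6.88, 7.34 and 6.53 log2 signal in si-Control and 7.97, 8.11 and 7.82 in si-C1GALT1-3. Its groups did not overlap, and the log2 fold change was 1.05 (SE 0.24), but it was not called without si-Control replicate 1 or 3 or without any si-C1GALT1-3 array. TRAK2, a mitochondrial adaptor of KIF5B named here after its values were seen, had a log2 fold change of -0.86 (SE 0.19) and a limma p of 0.00408, below the 2-fold limit. TRAK1, also named after its values were seen, lay the other way at 0.49 (SE 0.15), with a limma p of 0.018. None of the 9 available promoters of the light chains and adaptors held a CHR core, against 27.9% of all genes.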

How the data were processed

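Total RNA of AGS cells (3 si-Control and 3 si-C1GALT1-3 samples, 48 h) was measured on one-colour Agilent arrays. The authors deposited the fluorescence intensity of every spot from Agilent Feature Extraction 10.5.1.1, background-subtracted within each array and not normalized between arrays. They also deposited a series table, whose intensity values equal the scanner's background-subtracted signals to a relative difference of 4.8e-09, linear and not centred, with array medians of 277.3, 143.4 and 146.6 for si-Control and 248.1, 247.7 and 167.8 for si-C1GALT1-3.

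Log2 processed signals were taken without the 2075 control spots. Spots marked as outliers (100 to 424 per array) and 9712 spots (15.9%) in the low region of si-Control replicate 2 were set to missing. Arrays were quantile normalized, spots of a probe averaged, and groups compared with limma 3.58.1 (lmFit, eBayes) in R 4.3.3, dim probes included. RefSeq accessions on the array gave a symbol to 31104 of 58201 probes, of which 58195 could be tested. Each gene was represented by its brightest probe by mean log2 signal. No fold is given for a kinesin that no array measured above background. PLK1 and KIF4B had no probe named in this way.

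The 39 members, the classes and the partner lists were chosen with earlier results of these data known. The genes named are the members, C1GALT1 and the partners passing the call. Others are said to be chosen after their values were seen, and KIFAP3 is one of these. The limma fit without a block was checked on simulated data with independent noise on each array. The replicate block and the unmoderated t-test were not checked in this way. The deviations from the group means of arrays on the same slide correlated at 0.200, 0.214 and 0.318 for replicates 1, 2 and 3. By the scanner records, same-numbered replicates shared a slide, and this pairing entered only the replicate block and the differences within slides. The fit without a block, which gave the main calls, leaves that correlation out of its SEs and p-values. Alternatives were another normalization or none, leaving out dim probes, the replicate block, a trend and robust prior, an unmoderated t-test of each probe, keeping outlier spots, no mask, normexp, the series table, the median over probes and leaving out each array. A mask narrower or wider on each side was chosen after seeing the data.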

Additional observations from a re-analysis of the deposited data

How the results depend on the processing

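KIF2C was called lower and KIF3A higher under every alternative run, leaving out each array included. The count of mitotic kinesins called lower, 3, was 6 with the 75th percentile in place of quantile normalization. It was 7 without dim probes, 7 with normexp, 5 with the replicate block and 4 with the trend and robust prior. Calls over all probes, in either direction, were 1734 with the 75th percentile, 1601 without dim probes and 915 with normexp. They were 1604 with the replicate block and 1480 with the trend and robust prior, against 1538. The kinesin count was 2 by the unmoderated t-test, 2 with the series table and 1 with no normalization between arrays. It ran from 1 to 3 when single arrays were left out, and was 1 without si-C1GALT1-3 replicate 3. The median log2 fold change of the class ran from -1.21 to -0.81 over those arrays, and that of the transport, ciliary and other kinesins from -0.04 to 0.14, with KIF3A called each time.

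An unmoderated t-test of each probe called 896 probes, with 2 at an adjusted p under 0.05, and normexp called 915, against 1538, and single arrays left out gave 1126 to 1781. In the fit described, 49 probes had an adjusted p under 0.05 in limma, the smallest being 0.0499. There were 0 with outlier spots kept, no normalization, the replicate block, the trend and robust prior, no mask or the narrower mask. Leaving out any single array also gave 0. There were 31 with the 75th percentile, 60 with the wider mask, 74 with the series table, 429 with normexp and 545 without dim probes. KIF2C and KIF3A had an adjusted p under 0.05 without dim probes (limma), and KIF2C, KIF4A and KIF3A with normexp. The share of calls that were higher was 62.5%, and it was 72.6% with no normalization, 40.2% with no mask and 52.2% without si-Control replicate 1.

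Signs turned in values near 0 or resting on masked spots. With no mask, KIF20A was 0.81, KIF20B 1.68, KIF23 1.99, KIF21B 1.23, and KIF24 1.18, because the low spots of si-Control replicate 2 then enter, and KIF21A, whose spot lies outside that region, was -0.13. Of the other masked members, KIF18A was 2.70, KIF1C 1.71, KIFC2 2.52, KIF26B 2.40, KIF12 1.64, KIF3B 1.20 and KIF3C -0.56, none of them called. KIF1B was 0.11 with no normalization, 0.062 with normexp, 0.051 with the series table and 0.0016 with the wider mask. KIF1C was -0.12 with the 75th percentile, -0.0059 with no normalization, -0.025 with the replicate block, -0.068 with normexp and -0.071 with the series table. Leaving out single arrays gave -0.54 to 0.65 for KIF18A, -0.082 to 0.11 for KIF1B, -0.25 to 0.27 for KIF1C, -0.38 to 0.0021 for KIF17, -0.22 to 0.25 for KIF21A, -0.12 to 0.51 for KIF26B and -0.78 to 0.20 for KIF24. Over the members, 28 values turned sign, 10 lost the call, 16 gained it and 648 kept both. The replicate block added the calls of KIF14 and KIF15 and changed no other kinesin call. Spindle partners called lower numbered from 1, with no normalization, to 9, without dim probes, against 7. FYCO1 lost its call with the 75th percentile, no normalization, the unmoderated t-test, no mask and normexp. The cause of the remaining shifts was not tested.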
